A study of Mus musculus with 2 samples.

Results

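Transcripts of 10 inflammatory cytokine and chemokine genes were measured in LSK cells (Lin- Sca-1+ c-Kit+), the bone marrow fraction in which mouse haematopoietic stem cells and early multipotent progenitors are found. The genes were taken by symbol from a list of 10 names, and all 10 were present among the 39017 gene identifiers of the count table. They encode the CXC chemokines Cxcl1, Cxcl2 and Cxcl10, the CC chemokines Ccl3 and Ccl4, the TNF family ligands Tnf and Ltb, the interleukins Il1b and Il6, and the growth factor Csf2. The groups were miR-146a-/- LSK cells, pooled from 6 mice, and WT LSK cells, pooled from 12 mice. Both pools were C57BL/6J mice aged 10 to 14 weeks, with no treatment named. Each genotype gave 1 library, so no difference has a replicate check, no p-value exists, and every ratio compares 2 libraries and not the genotypes. The labels give neither the sex of the animals nor a restriction of the knockout to a cell type.

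miR-146a is a microRNA that NF-kB induces and that in turn lowers Traf6 and Irak1, which carry signals from Toll-like and IL-1 receptors to NF-kB. NF-kB activates many cytokine and chemokine genes, and their messages are usually short-lived because AU-rich elements in the 3' UTR recruit decay factors. Chemokines draw leukocytes to tissue, TNF family ligands and interleukins spread the inflammatory signal, and stem and progenitor cells both respond to and produce such factors. The mature microRNA of the targeted gene, with its seed (bases 2 to 8) in capitals, lies on the minus strand of GRCm38.p6 at chr11:43374435-43374456 (RefSeq).
mmu-miR-146a-5p: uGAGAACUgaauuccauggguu
The precursor gene had 0 counts in both libraries, so it gave no check of the labels.

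Chemokine and Tnf transcripts were more abundant in the miR-146a-/- library. Ltb was at the same level in both libraries within counting error under TMM scaling. Scaled by total counts, Ltb was lower (log2 ratio -0.78), as was the median of all measured genes (-0.83). Of the 10 genes, 6 had at least 20 counts summed over both libraries, the minimum set for a ratio, and are called measured below. The call required the full 95% Clopper-Pearson interval of a ratio to lie past 1.5-fold in one direction. By that rule 5 of the 6 measured genes were higher and 0 were lower, against 5.35% higher and 1.53% lower (6.87% either way) among all 13880 measured genes. The 10 genes were chosen with earlier results of these data known. Scaled by total counts instead, 140 of all measured genes were higher and 7077 lower, and by protein-coding totals 496 and 574, against 742 and 212 here. Among measured protein-coding genes the background shares were 4.37%, 1.44% and 5.81%. The median log2 ratio (miR-146a-/- over WT) was 1.94 over the 6 genes and -0.01 over all measured genes. Summed over the 10 genes, the level was 527 CPM (TMM-normalised counts, scaled to library size) in miR-146a-/- and 155 in WT, a 3.39-fold difference, which was 1.92-fold when scaled by total counts. In a bulk library, a change in the number of producing cells and a change in RNA per cell cannot be told apart.

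Total counts were 22231389 in the miR-146a-/- library and 35069136 in the WT library, of which protein-coding genes held 51.5% and 81.4%. The ribosomal-repeat feature Gm42418 alone held 27.2% of miR-146a-/- counts and 2.13% of WT counts, so levels and ratios are given after TMM scaling, which sets the bulk of genes to no change. The genes that define the LSK gate were abundant in both libraries, with Kit at 728 CPM in miR-146a-/- and 558 CPM in WT, and Ly6a, which encodes Sca-1, at 74.6 CPM and 66.8 CPM. Sex-linked transcripts differed between the pools, with Xist at a log2 ratio of 3.64 and 4 Y-linked genes between -2.75 and -2.33, so sex ratio and genotype cannot be told apart. All intervals account for counting error alone, and the labels name no molecular identifiers.

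**Figure D1:**
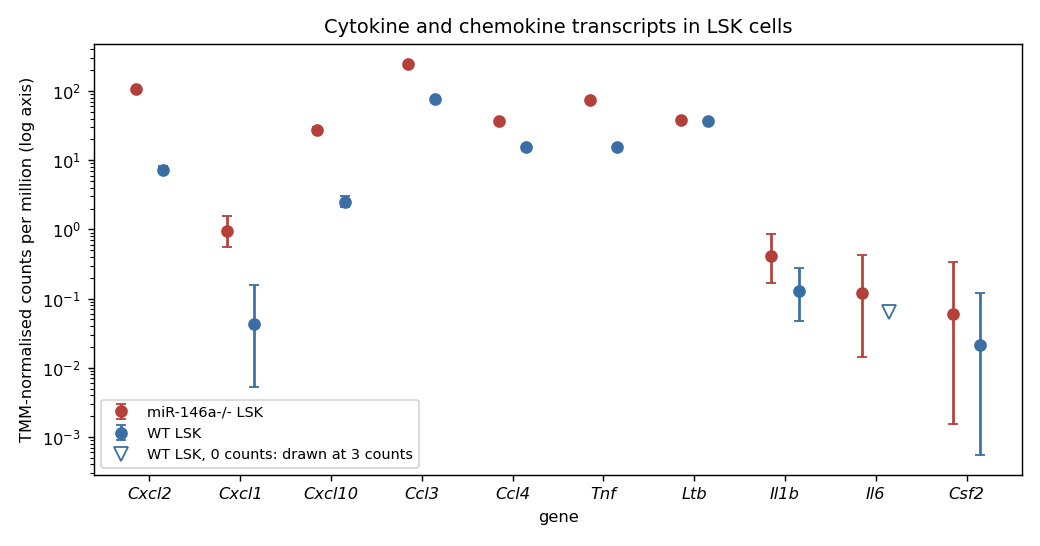
TMM-normalised CPM (log axis) of the 10 cytokine and chemokine genes in the miR-146a-/- LSK library (red) and the WT LSK library (blue). Bars are exact 95% Poisson intervals of the single library, and an open triangle marks a gene with 0 counts at the level of 3 counts. Cxcl2 stood at 109 CPM in miR-146a-/- and 7.29 CPM in WT, whereas the intervals of Ltb overlapped.

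The CXC chemokines showed the widest gaps. Cxcl2, a neutrophil attractant that binds the receptor Cxcr2, lies on chromosome 5 from 90903871 to 90905938 on the plus strand. It had 1815 counts (109 CPM) in miR-146a-/- and 340 counts (7.29 CPM) in WT. The ratio was 14.9-fold (95% interval 13.2 to 16.8), or 3.89 on the log2 scale, and placed Cxcl2 at rank 22 of the 13880 measured genes. Per kb of exon its level stood above that of 96.3% of measured protein-coding genes in miR-146a-/- and above 40.5% of them in WT.

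Cxcl10, an interferon-inducible chemokine that binds Cxcr3 on activated T and NK cells, lies on chromosome 5 from 92346638 to 92348889 on the minus strand, inside the span of Art3. It had 463 counts (27.7 CPM) in miR-146a-/- and 117 counts (2.51 CPM) in WT. The ratio was 11-fold (8.99 to 13.6), or 3.46 on the log2 scale, rank 28, and its interval overlapped that of Cxcl2. Art3, on the opposite strand, had 15 counts in miR-146a-/- and 13 in WT, a log2 ratio of 1.63 (0.51 to 2.88), not called. It reached the minimum for a ratio only with its miR-146a-/- counts, and as overlapping genes Art3 and Cxcl10 can share reads.

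Cxcl1, the neighbour and close relative of Cxcl2, lies 12.6 kb upstream of it (chromosome 5, 90891241 to 90893115, plus strand). It had 16 counts (0.957 CPM, exact Poisson interval 0.547 to 1.55) in miR-146a-/- and 2 counts (0.0429 CPM, 0.00520 to 0.155) in WT. With 18 summed counts it lay just below the minimum for a ratio, where Cxcl10 with 580 was the measured gene nearest to that minimum. The intervals of the 2 libraries did not overlap, with the miR-146a-/- library higher, as for Cxcl2. As close relatives, Cxcl1 and Cxcl2 can share reads, so these few counts are no separate check of Cxcl2.

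The promoters of these 3 genes are shown because all 3 hold a match to the NF-kB binding site (kappaB consensus: GGG, a purine, any 2 bases, 2 pyrimidines, CC). They run from 250 bases before to 50 bases after the RefSeq start site on GRCm38.p6. Capitals mark the kappaB consensus and, in Cxcl10, also the core of the interferon response element (GAAA, any 2 bases, GAAA). The intervals are chr5:90903649-90903948 (plus) for Cxcl2, chr5:90890995-90891294 (plus) for Cxcl1 and chr5:92348840-92349139 (minus) for Cxcl10.
Cxcl2: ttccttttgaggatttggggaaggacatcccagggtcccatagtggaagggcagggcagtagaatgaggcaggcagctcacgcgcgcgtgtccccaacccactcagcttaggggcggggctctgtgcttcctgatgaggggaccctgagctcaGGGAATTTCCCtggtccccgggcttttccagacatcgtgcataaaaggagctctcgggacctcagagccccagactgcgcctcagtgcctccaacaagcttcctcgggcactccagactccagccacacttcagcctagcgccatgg
Cxcl1: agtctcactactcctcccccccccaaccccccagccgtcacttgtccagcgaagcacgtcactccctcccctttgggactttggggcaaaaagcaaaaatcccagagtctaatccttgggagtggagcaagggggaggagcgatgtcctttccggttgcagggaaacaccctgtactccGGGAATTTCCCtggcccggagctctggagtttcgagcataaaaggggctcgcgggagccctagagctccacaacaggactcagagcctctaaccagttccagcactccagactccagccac
Cxcl10: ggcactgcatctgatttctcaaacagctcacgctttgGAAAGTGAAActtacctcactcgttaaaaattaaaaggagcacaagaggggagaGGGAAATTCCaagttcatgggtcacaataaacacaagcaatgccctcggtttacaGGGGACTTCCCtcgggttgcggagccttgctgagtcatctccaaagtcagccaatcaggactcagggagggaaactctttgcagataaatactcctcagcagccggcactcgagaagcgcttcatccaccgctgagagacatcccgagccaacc
Cxcl2 and Cxcl1 carried the same 11 letters, from position -97 in Cxcl2 and from -71 in Cxcl1. Their first 10 letters were present on either strand in 0.0883% of 32851 promoters of the same length. In Cxcl10 the consensus began at -159, at -104 and, overlapping the last, at -103, while the interferon core began at -213.

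The CC chemokines had smaller ratios than Cxcl2 and Cxcl10, and Ccl3 had the most counts of the 10 genes in both libraries. Ccl3 (MIP-1 alpha), which attracts monocytes and other leukocytes, lies on chromosome 11 from 83647844 to 83649355 on the minus strand. It had 4042 counts (242 CPM) in miR-146a-/- and 3626 counts (77.8 CPM) in WT, a ratio of 3.11-fold (2.97 to 3.25), log2 1.64, rank 280. Ccl4 (MIP-1 beta), a close relative of Ccl3, lies on the opposite strand of chromosome 11 from 83662584 to 83664683. It had 608 counts (36.4 CPM) in miR-146a-/- and 711 counts (15.3 CPM) in WT, a ratio of 2.38-fold (2.14 to 2.66), log2 1.25, rank 507, and was not called when scaled by total counts (0.43). Both were higher, and the interval of Ccl4 lay wholly below that of Ccl3, so these neighbours differed by unequal amounts. Ccl3 made up 45.9% of the summed level of the 10 genes in miR-146a-/- and 50.1% in WT.

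Of the TNF family ligands, Tnf was higher and Ltb was not. Tnf, the prototype inflammatory cytokine, which signals through Tnfrsf1a and Tnfrsf1b, lies on chromosome 17 from 35199381 to 35202007 on the minus strand. It had 1222 counts (73.1 CPM) in miR-146a-/- and 718 counts (15.4 CPM) in WT. The ratio was 4.74-fold (4.32 to 5.21), or 2.24 on the log2 scale, rank 94, and lay between those of Cxcl10 and Ccl3 without overlap. Ltb, lymphotoxin beta, a membrane protein that acts through Ltbr in lymphoid organ development, starts 7.57 kb from Tnf on chromosome 17 (35194439 to 35196320, plus strand). It had 632 counts (37.8 CPM) in miR-146a-/- and 1711 counts (36.7 CPM) in WT, a ratio of 1.03-fold (0.938 to 1.13), rank 6236. Its interval spanned equality and did not overlap that of Tnf. The share of Ltb in the summed level was 7.18% in miR-146a-/- and 23.7% in WT. Mir6973a, which lies within Ltb, had 9 counts in miR-146a-/- and 15 in WT, some of which may be the same reads.

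The remaining 3 genes were at the edge of detection. Il1b, the pyrogenic interleukin released after caspase-1 cleavage, had 7 counts (0.419 CPM, 0.168 to 0.862) in miR-146a-/- and 6 counts (0.129 CPM, 0.0472 to 0.280) in WT, with overlapping intervals. The antisense gene Il1bos, which overlaps Il1b, also had 7 counts in miR-146a-/- and 6 in WT, so these reads cannot be assigned to a strand. Il6, which signals through Il6ra and Il6st, had 2 counts in miR-146a-/- and 0 in WT, where the exact Poisson interval reached up to 0.0791 CPM. Csf2 (GM-CSF), a growth factor of granulocytes and macrophages, had 1 count in each library. For Il1b, Il6 and Csf2 a difference was not detectable at this depth, and no ratio is given.

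Ordered by level per kb of exon, Ccl3 stood first in both libraries, at 316 CPM per kb in miR-146a-/- and 102 CPM per kb in WT. In miR-146a-/- it was followed by Ccl4 (55.1), Cxcl2 (52.5), Tnf (44.6), Ltb (24.9) and Cxcl10 (12.3). Only Ccl4 and Cxcl2 among these neighbours had overlapping intervals. In WT the order after Ccl3 was Ltb (24.2), Ccl4 (23.1), Tnf (9.40), Cxcl2 (3.53) and Cxcl10 (1.11), and only Ltb and Ccl4 overlapped. Ltb thus stood below Ccl4, Cxcl2 and Tnf in miR-146a-/-. In WT it stood above Tnf and Cxcl2 and overlapped Ccl4, while its own level was nearly the same in both libraries. Cxcl1, Il1b, Csf2 and Il6 filled the last 4 places in both libraries.

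**Figure D2:**
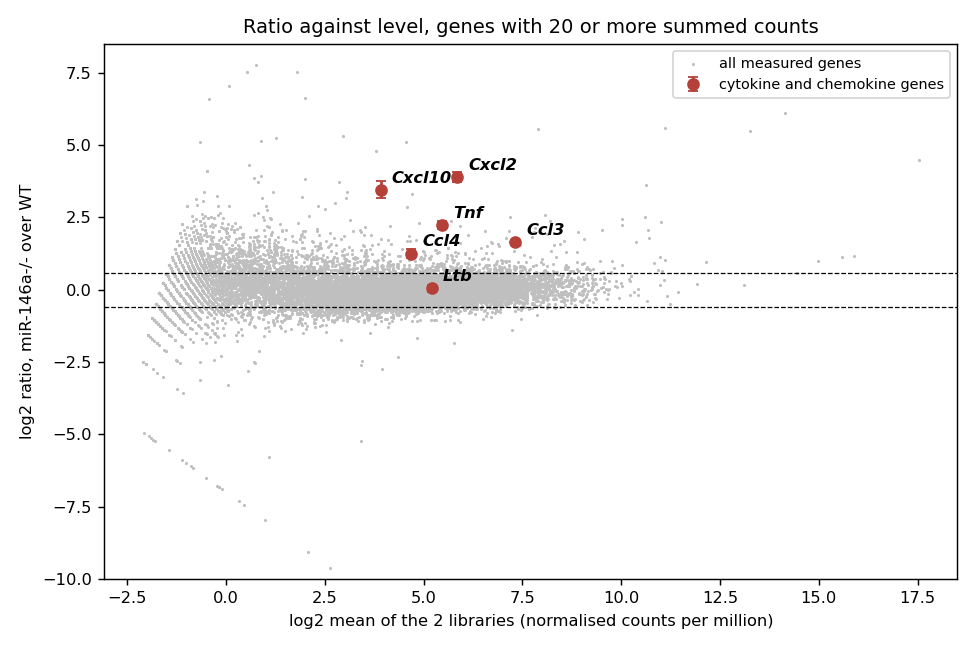
Log2 ratio (miR-146a-/- over WT) against the log2 mean level of the 2 libraries for all 13880 measured genes (grey) and the 6 measured cytokine and chemokine genes (red, with 95% counting intervals). Dashed lines mark 1.5-fold. Cxcl2, Cxcl10, Tnf, Ccl3 and Ccl4 lie above the upper line and Ltb lies at 0.04.

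Of 19 listed receptor genes of these ligands 15 were measured, of which 2 were higher, 0 lower and 13 neither, against 5.35% higher and 1.53% lower among all measured genes. Their median log2 ratio was 0.04. The higher ones were Il1r2, a decoy receptor that binds IL-1 without signalling (159 counts in miR-146a-/- and 147 in WT, 1.59, interval 1.26 to 1.93), and Csf2rb2, the IL-3 specific beta chain (493 and 608 counts, 1.18). Csf2rb2 has a close paralog in Csf2rb and can share reads with it. The 3 most abundant receptors were Tnfrsf1a at 97.7 CPM in miR-146a-/- and 84.6 CPM in WT (0.21), Tnfrsf1b at 79.6 and 82.4 CPM (-0.05), and Il1r1 with 1326 and 4196 counts (-0.18).

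Those of the other chemokines that were called were higher. Of 32 listed genes 13 were measured and 11 had 0 counts in both libraries. Of the 13, 6 were higher and 0 lower (median 0.75), against 5.35% higher and 1.53% lower among all measured genes. Ccl5 (RANTES), a T cell and monocyte attractant, had 62 counts in miR-146a-/- and 31 in WT (2.45, 1.83 to 3.15). Ccl2, the main monocyte attractant, had 18 and 9 counts (2.39, 1.25 to 3.82), and Cxcl9, an interferon-gamma-induced ligand of Cxcr3, had 19 and 12 (2.08, 1.02 to 3.32). Cxcl16, also called higher, had 16 counts in miR-146a-/- and 13 in WT. Ccl2, Cxcl9 and Cxcl16 reached the minimum for a ratio only with their miR-146a-/- counts, so their calls add little to the share. The most abundant were Ccl9 at 44.0 CPM in miR-146a-/- and 20.6 CPM in WT (1.09), the membrane-bound Cx3cl1 at 10.7 and 4.63 CPM (1.21), and Ccl27a at 6.10 and 4.53 CPM (0.43, not called).

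Of 49 other cytokine genes listed, 48 were in the table and 22 were measured. Of the 22, 3 were higher and 0 lower (median 0.32), against 5.35% higher and 1.53% lower among all measured genes. Gdf15, a stress-induced TGF-beta family member, had 248 counts in miR-146a-/- and 76 in WT (3.17, 2.81 to 3.58). Il10, an anti-inflammatory cytokine, had 165 and 65 counts (2.81, 2.40 to 3.26), and Lif, of the IL-6 family, had 411 and 492 (1.22, 1.03 to 1.41). The abundant members were not called: Tgfb1 was at 326 CPM in miR-146a-/- and 253 CPM in WT (0.37), Mif at 93.2 and 130 CPM (-0.48), and Il16 at 86.3 and 104 CPM (-0.27).

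**Figure D3:**
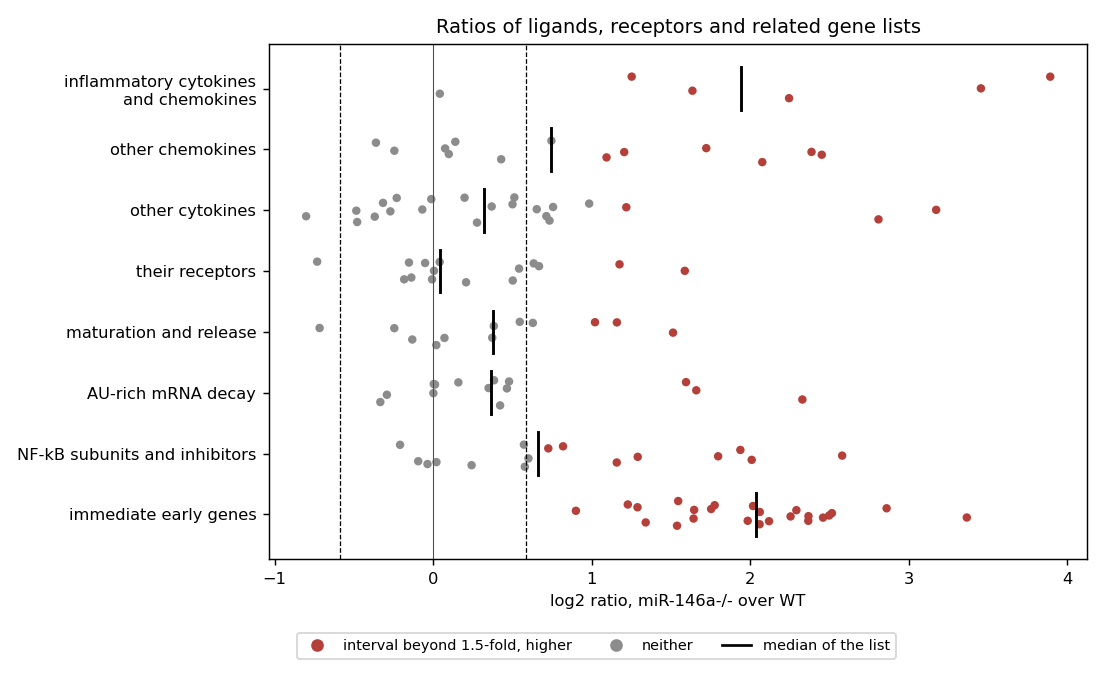
Log2 ratios (miR-146a-/- over WT) of the measured genes of 8 lists, 1 point a gene, with the median of each list as a black bar and 1.5-fold as dashed lines. Red points were called higher and no gene in these lists was called lower. The median was 1.94 for the inflammatory cytokines and chemokines, 0.04 for their receptors and 2.04 for immediate early genes.

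Genes that process the ligands or control their messages differed in part. For comparison, 5.35% of all measured genes were higher and 1.53% lower. Of 12 genes of maturation and release 3 were higher and 0 lower (median 0.38): the inflammasome sensor Nlrp3 (1.51, 1.18 to 1.86), the IL-18 antagonist Il18bp (1.02, 0.64 to 1.41) and the sensor Nlrc4 (1.16, 0.62 to 1.71). Adam17, which sheds TNF from the membrane, was at 45.1 CPM in miR-146a-/- and 53.4 CPM in WT (-0.25), with Gsdmd at -0.13 and Aim2 at 0.37. Of 14 genes of AU-rich mRNA decay 3 were higher and 0 lower (median 0.37). These were Zfp36 (tristetraprolin, which binds the AU-rich element of Tnf; 2.33, 2.31 to 2.35), Zfp36l1 (1.66) and the endonuclease gene Zc3h12a (2981 counts in miR-146a-/- and 2750 in WT). Zfp36 had 56891 counts in miR-146a-/- and 31565 in WT, while Zfp36l2 was at 0.47 and the deadenylase scaffold Cnot1 at 0.16.

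In the list of NF-kB subunits and inhibitors, 8 of 16 genes were higher and 0 lower (median 0.66). Among all measured genes the shares were 5.35% higher and 1.53% lower. The 8 were led by Tnfaip3 (2.58, 2.52 to 2.64), Nfkbia (2.01, 1.95 to 2.07) and Nfkbiz (1.94, 1.89 to 1.99), which NF-kB itself induces. All 24 immediate early genes found of 25 listed were higher, with a median of 2.04, in a list chosen with earlier results of these data known. Their summed level was 19541 CPM in miR-146a-/- and 4946 CPM in WT. Ranked by the interval bound nearest to 0, Egr2 (3.37), Egr3 (2.86) and Egr1 (43996 counts in miR-146a-/- and 21710 in WT) came first, and the most abundant were Egr1, Jun (2.06) and Fos (1.78). Such genes are also known to respond to cell isolation. Of 12 heat shock genes 1 was higher and 2 lower (median -0.23), namely Dnajb1 (0.96), Hsph1 (-1.84) and Hspd1 (-0.71). The abundant chaperones Hsp90ab1 (-0.23), Hspa8 (-0.19) and Hsp90aa1 (-0.53) were not called. The part of cell isolation in the cytokine ratios was not tested.

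Within 250 kb of any of the 10 genes lay 58 measured protein-coding genes outside the set, of which 7 were higher and 0 lower (median 0.05), against 4.37% higher and 1.44% lower among all measured protein-coding genes. Around Cxcl2, 1 of 4 such genes was higher, the epidermal growth factor family ligand Areg (31 counts in miR-146a-/- and 11 in WT, 2.89, 1.94 to 4.11). With 11 counts in WT, Areg reached the minimum for a ratio only with its miR-146a-/- counts. The platelet chemokines Ppbp (0.08) and Pf4 (-0.24), in the same cluster, and Mthfd2l (-0.10) were not called, and all 3 were named after their values were seen. Cxcl3, also named after its values were seen, had 7 counts in miR-146a-/- and 1 in WT. Around Cxcl10 the higher gene was Cxcl9, which also reached the minimum only with its miR-146a-/- counts. Around Ccl3 and Ccl4 they were Ccl5 and Ccl9. Around Tnf and Ltb, 3 of 23 were higher, the MHC class I genes H2-Q4 (0.82), H2-Q6 (0.90) and H2-Q7 (0.80), which have close paralogs and can share reads. Lta, 3.34 kb from Tnf and named after its values were seen, had 2 counts in miR-146a-/- and 7 in WT, too few for a ratio.

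**Figure D4:**
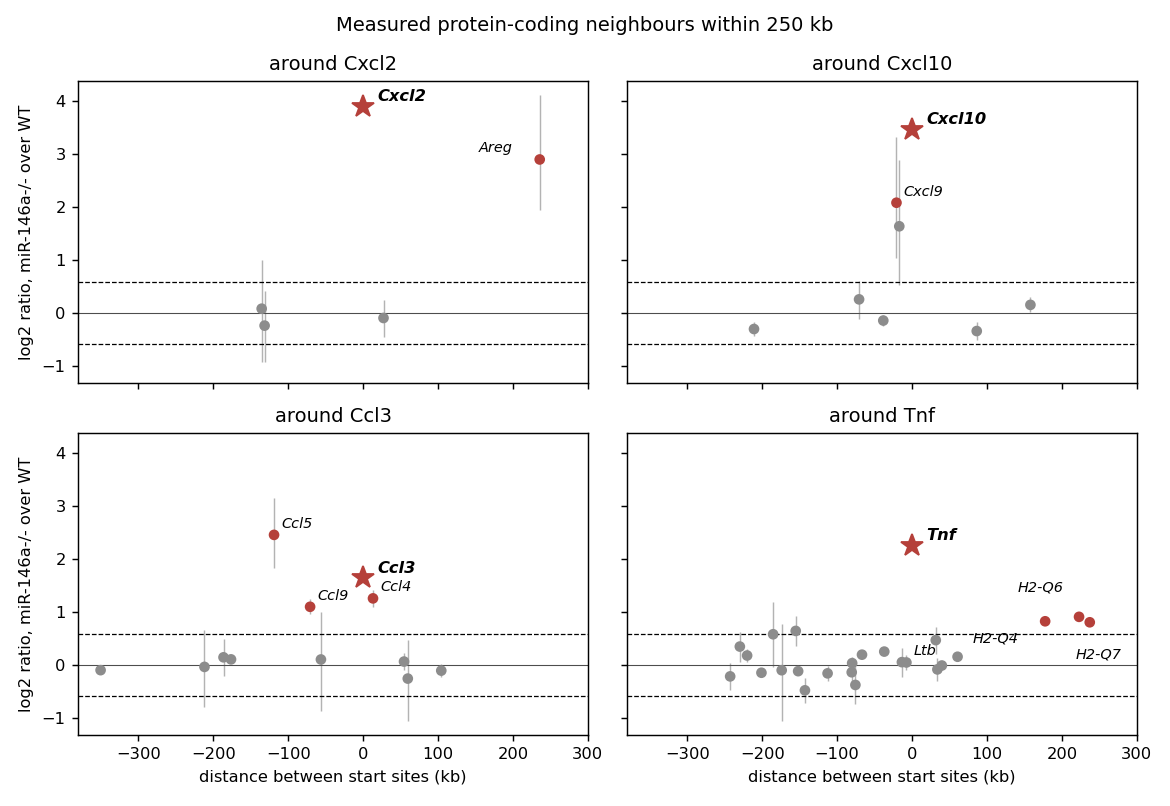
Log2 ratio (miR-146a-/- over WT) of measured protein-coding genes within 250 kb of Cxcl2, Cxcl10, Ccl3 and Tnf, against the distance between start sites in kb, positive toward higher coordinates. Stars mark the central gene, red points were called higher, bars are 95% counting intervals and dashed lines mark 1.5-fold. Most neighbours lie between the dashed lines, while Ccl4, Ccl5 and Ccl9 lie above them around Ccl3.

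Promoter letters were compared over the 9 of the 10 genes with an entry in the RefSeq table (GRCm38.p6), Ccl4 having none there. The kappaB consensus, sought on both strands, was present in 5 of 9 (Cxcl1, Cxcl2, Cxcl10, Il6 and Ltb), against 8.46% of 32851 promoters. It was not present in these windows of Tnf, Ccl3 or Il1b, nor in that of Csf2, which lies wholly upstream of the Csf2 gene as annotated in GENCODE M21 and so does not cover its annotated start. Ltb, with a ratio of 1.03-fold, carried a match on the minus strand from -87 to -78, shown in capitals in its promoter at chr17:35194257-35194556 (plus) for comparison with the chemokines.
Ltb: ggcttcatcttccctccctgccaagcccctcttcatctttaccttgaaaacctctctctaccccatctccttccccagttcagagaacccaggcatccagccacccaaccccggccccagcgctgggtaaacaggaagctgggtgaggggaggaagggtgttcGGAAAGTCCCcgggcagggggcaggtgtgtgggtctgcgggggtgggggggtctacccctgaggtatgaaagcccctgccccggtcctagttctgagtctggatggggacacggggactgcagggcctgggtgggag
TGANTCA, the AP-1 motif, was present in Cxcl10 and Il6, against 7.81% of all promoters, the interferon core in Cxcl10, against 3.44%, and TATAAA in Tnf and Il1b, against 13.6%. Outside the 10 genes, measured protein-coding genes with a kappaB match were called higher in 72 of 1195 cases (6.03%), against 321 of 8535 (3.76%) without one. Matches were present both in genes that were higher and in Ltb.

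The 3' UTRs of these genes were rich in the pentamer ATTTA, the unit of AU-rich elements. In the longest annotated 3' UTR (GENCODE M21) the density had a median of 8.04 per kb over the 10 genes, against 1.30 over 12249 measured protein-coding genes. Csf2 had 28.4 per kb, Ccl3 12.2, Cxcl1 11.8, Tnf 10.5, Il1b 8.71, Cxcl2 7.36, Ccl4 6.62, Il6 6.00 and Cxcl10 3.01. Ltb had none in its 174 bases. The nonamer ATTTATTTA was present in 5 of 10 genes, against 3.39% of 6838 measured genes with a 3' UTR in the same range of lengths.

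The 30-base window with the most pentamers, in capitals, is shown for the genes with the nonamer, since these 5 genes share it. The windows lie at chr5:90905327-90905356 (plus) for Cxcl2, chr5:90892602-90892631 (plus) for Cxcl1, chr17:35199679-35199708 (minus) for Tnf, chr2:129364808-129364837 (minus) for Il1b and chr11:54247329-54247358 (minus) for Csf2, all on GRCm38.
Cxcl2: tATTTATTTAtctatgtATTTATTTATTTA
Cxcl1: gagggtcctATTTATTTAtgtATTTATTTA
Tnf: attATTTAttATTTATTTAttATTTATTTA
Il1b: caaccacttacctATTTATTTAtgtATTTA
Csf2: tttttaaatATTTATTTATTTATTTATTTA
Among the 6 measured genes, the 5 that were higher had between 3.01 and 12.2 pentamers per kb, and Ltb had 0 in its short 3' UTR of 174 bases. Of the 5 higher genes, Cxcl2 and Tnf had the nonamer, while Cxcl10, Ccl3 and Ccl4 had 0 nonamers. Across other measured protein-coding genes, 9 of 174 with at least 2 nonamers (5.17%) and 43 of 622 with 1 (6.91%) were higher, against 470 of 11447 with none (4.11%). The match to the microRNA seed, AGTTCTC, was present in the 3' UTR of 0 of the 10 genes, against 5.92% of genes with a 3' UTR in the same range of lengths.

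**Figure D5:**
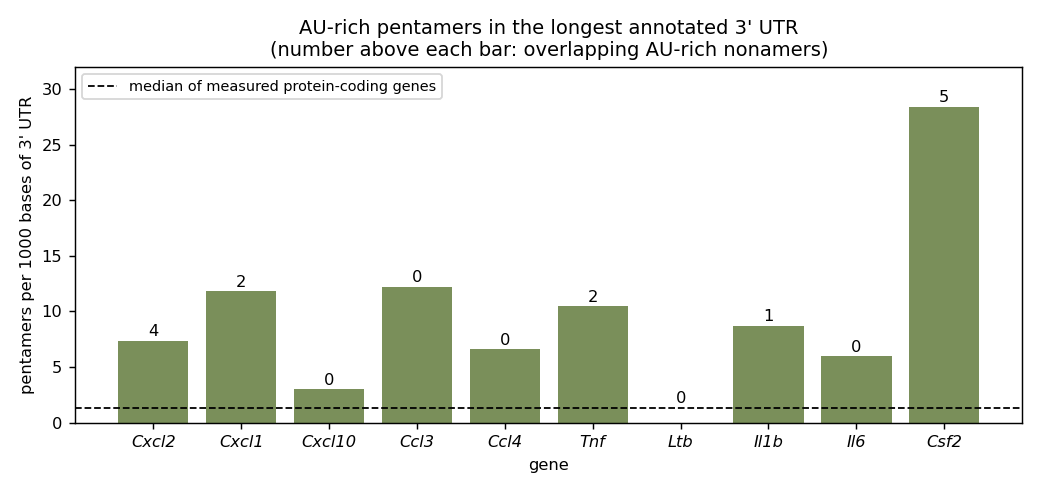
Density of AU-rich pentamers per kb in the longest annotated 3' UTR of each of the 10 genes (bars), with the number of overlapping AU-rich nonamers above each bar. The dashed line is the median of 1.30 over 12249 measured protein-coding genes. Csf2 had the highest density of the 10, 28.4, and Ltb had 0.

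Markers of mature cells that can produce these ligands did not all lie in one direction. The shares among all measured genes were 5.35% higher and 1.53% lower. Monocyte and macrophage markers, with 14 of 16 measured, had 3 higher, 0 lower and a median of 0.63, and a summed level of 124 CPM in miR-146a-/- and 106 CPM in WT. The higher ones were Ly6c2 (95 counts in miR-146a-/- and 78 in WT, 1.75), F13a1 (96 and 97 counts, 1.46) and Ms4a6c (374 and 568 counts, 0.88), while Lyz2 was at -0.29 and Cd68 at 0.63. Neutrophil markers, with 9 of 12 measured, had 0 higher and 3 lower, with a median of -1.24 and a summed level of 8.25 CPM in miR-146a-/- and 16.6 CPM in WT. Ltf (-2.80), Ngp (-1.38) and S100a9 (-1.24) were the lower ones. T and NK cell markers, with 7 of 15 measured, had 3 higher and 0 lower (median 0.92), with Cd247 (1.52), Gzmb (1.93) and Cd4 (1.13) higher. Gzmb (13 counts in miR-146a-/- and 9 in WT) reached the minimum only with its miR-146a-/- counts. The summed level of the T and NK cell list was 59.0 CPM in miR-146a-/- and 63.8 CPM in WT. Nkg7 was at -0.12 and Lck at -0.57, and Cd3d, Cd3e, Cd3g and Cd8a had 0 counts in both libraries.

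B and plasma cell markers, with 6 of 12 measured, had 0 higher and 1 lower, Jchain (-1.35), against 5.35% higher and 1.53% lower among all measured genes. Ighm was at -0.27, Sdc1 at 0.26 and Cd79b at -0.05. The summed level of the B and plasma cell list was 298 CPM in miR-146a-/- and 345 CPM in WT. No gene was called among 5 measured dendritic cell markers (Flt3 -0.23, Tcf4 0.49, Bst2 0.09), 5 of mast cells and basophils (Il3ra 0.47, Cpa3 0.67, Gata1 0.65), 6 of erythroid cells (Car2 0.12, Hbb-bt -0.71, Car1 1.02) and 7 of stroma and endothelium (Pecam1 0.48, Pdgfrb 0.08, Emcn 0.51). Their summed levels in miR-146a-/- and WT were 631 and 643, 29.5 and 20.5, 267 and 244, and 223 and 172 CPM. Of 14 LSK identity genes, 1 was higher, Gata2 (0.97), with Hlf at 0.38 and Cd34 at -0.19. Flt3 stood in the dendritic and LSK lists, Cxcr2 in the neutrophil and receptor lists and Cxcl12 in the stromal and chemokine lists. Igll1 of the B cell list, Alas2 of the erythroid list and Lepr of the stromal list had 0 counts in both libraries. The part of contaminating mature cells in the cytokine ratios was not tested.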

How the data were processed

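RNA of sorted LSK cells was measured in 1 library per genotype. Per the labels' protocols, total RNA was depleted of ribosomal RNA. The authors deposited whole-number counts per Ensembl gene without normalisation. Per the file headers, junction reads were placed on the genome and duplicates flagged. STAR 2.5.3a, Salmon 0.9.0 and mm10 appear in the submitters' processing notes without a role. Counting program, annotation and strand use: not given in the sources used here; thus overlapping genes and close paralogs can share reads. Columns were assigned by the barcode in the sample titles.

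Of 39017 identifiers, 37693 had a symbol in GENCODE M21 (GRCm38, the assembly of mm10). TMM (edgeR 4.0.16, R 4.3.3), run on genes with 20 or more summed counts, gave effective sizes of 16724070 in miR-146a-/- and 46617575 in WT, so a count of 3 was 0.179 and 0.0644 CPM. Log2 ratios used a prior count of 0.5. No test was possible. Intervals came from scipy 1.17.1 (Python 3.11.15). Levels per length used the union of exons. Motifs were sought in RefSeq promoters and the longest 3' UTRs.

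The 10 genes and the comparison lists were chosen with earlier results of these data known. The text names all 10 genes and, of each other list, up to 3 called genes in either direction (those whose interval stays farthest from 0) and the 3 most abundant, plus called neighbours within 250 kb. Ratios under other scalings, filters, thresholds, a prior count of 5, thinned WT counts and an adjustment for exon length and GC content are given in the closing section.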

Additional observations from a re-analysis of the deposited data

How the results depend on the processing

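Under 10 of the 11 alternative settings, 5 or 6 genes of the set were higher and 0 lower. By total counts, without TMM, the median of all measured genes moved to -0.83 and calls to 140 higher and 7077 lower (1.94% higher), against 742 and 212 (77.8%). By total counts 4 genes of the set were higher and 1 was lower, their median was 1.12 and the background was 1.01% higher. Ltb then had a log2 ratio of -0.78 and was called lower, and Ccl4 at 0.43 was not called. Relative to the median of all genes, these were 0.05 for Ltb and 1.26 for Ccl4, against 0.05 and 1.27 under TMM. By protein-coding totals the median of all genes was -0.17 and calls were 496 higher and 574 lower (46.4% higher), with the same 5 genes of the set higher. A 2-fold threshold, stricter by construction, left 2.12% of all genes higher and 5 of the set. Without the filter on counts 6 of 10 were higher, the added gene being Cxcl1 (16 and 2 counts). By total counts the log2 ratios were 3.07 for Cxcl2, 2.64 for Cxcl10, 1.42 for Tnf and 0.81 for Ccl3, the lowest of any setting, and the summed level differed 1.92-fold, against 3.39-fold (chosen after the data were seen). Relative to the median of all genes, which by construction cancels a shift common to all genes, the ranges over the main and all 11 settings were 3.88 to 3.98 for Cxcl2, 3.39 to 3.55 for Cxcl10, 2.20 to 2.39 for Tnf, 1.63 to 1.78 for Ccl3, 1.19 to 1.4 for Ccl4 and 0.03 to 0.19 for Ltb. With lengths of the longest protein-coding transcript, a choice made after the data were seen, Cxcl2 stood above Ccl4 in miR-146a-/- (58.4 and 55.1 CPM per kb, with overlapping intervals) and Ltb stood clear of Ccl4 in WT (31.6 and 23.1). Cxcl10 was then at 20.5 in miR-146a-/- and 1.85 in WT. No paired analysis was possible because each genotype had 1 library. Depth limits Cxcl1, Il1b, Il6 and Csf2, which had at most 16 counts in a library.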
